A study of Sus scrofa with 24 samples.

Results

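The 37 genes of the pig mitochondrial chromosome were taken as those pig Ensembl genes (identifiers beginning ENSSSCG) that the count table places on chromosome MT, out of 25880 pig genes in the table. They comprise 13 protein-coding genes, 2 ribosomal RNA genes and 22 transfer RNA (tRNA) genes, and the choice used no measured value. Of these, 30 passed the filter on low counts: all 13 protein-coding genes, both ribosomal RNA genes and 15 of the 22 tRNA genes.

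The cells were bronchial epithelial cells of wild-type pigs aged 1 month, freed from the bronchi by enzymes, grown on collagen-treated membranes and differentiated at an air-liquid interface. All cultures were first kept for 1 h with DMSO as vehicle or with SB203580 at 20 µM, which blocks p38 MAP kinases, and PBS or 100 ng/ml flagellin was then added, the subunit of bacterial flagella and the ligand of TLR5. The 6 groups were DMSO then PBS for 2 h, DMSO then flagellin for 2 h, SB203580 then flagellin for 2 h, and the same 3 treatments for 24 h; below they are called PBS, flagellin, and SB203580 plus flagellin. Each group had 4 libraries, numbered 1 to 4, which gave 24 in all, and no group with SB203580 alone was analysed here. The labels do not say whether libraries of a group came from separate animals or cultures, so spread between libraries 1 and 2, or between 3 and 4, may be technical, while the pairs themselves differ in the way given below.

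Mitochondria carry a small circular genome of their own, which encodes core subunits of respiratory complexes I, III and IV and of the ATP synthase (complex V), together with the ribosomal and transfer RNAs needed to translate them. It is transcribed from both strands as long precursor RNAs, which are cut mainly at the tRNAs that punctuate the messenger and ribosomal RNA genes, and the levels of the products then differ through processing and stability. All other respiratory chain subunits, the mitochondrial ribosomal proteins and the transcription machinery are encoded in the nucleus and imported. In the airway, ciliated cells are known for dense mitochondria beneath the beating cilia.

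Libraries held 26345945 to 36267289 counts in pig genes, so that 3 counts in a library correspond to 0.0827 to 0.114 CPM, the count scaled to the library's total in pig genes. Libraries of replicates 1 and 2 stood apart from those of replicates 3 and 4 in every group: KDM5D, a gene of the Y chromosome, had 118 to 184 counts in each library of replicates 1 and 2 and 0 in all libraries of replicates 3 and 4. The labels do not say what the numbers stand for. With this Y chromosome gene counted only in replicates 1 and 2, cells of the pairs came from different animals. How many animals each pair holds is not given. For other differences between the pairs, animal, culture and library handling cannot be told apart as the source. The summed level of 4 airway epithelial markers was 2541 to 3954 CPM over the 24 libraries, and EPCAM alone was 222 to 372 CPM. Markers of differentiated cells were less even: the summed ciliated list was 22.2 to 77.1 CPM with FOXJ1, the regulator of motile cilia, at 1.60 to 22.2 CPM, and the secretory marker SCGB1A1 was 0 to 14.8 CPM. Of 5 leukocyte markers, CD3E was 0 in all 24 libraries and PTPRC, the pan-leukocyte antigen, in 18 (at most 0.116 CPM), whereas CD68 was 5.33 to 30.5 CPM and LYZ 1.75 to 19.5 CPM. In 5 libraries of replicates 1 and 2 (PBS at 2 h replicate 2, flagellin at 24 h replicate 2, SB203580 plus flagellin at 2 h replicate 1, and SB203580 plus flagellin at 24 h replicates 1 and 2) the ciliated list summed to 22.9 to 28.3 CPM and the secretory list to 164 to 341 CPM, against 43.2 to 77.1 and 443 to 786 CPM in the other 7 libraries of those replicates. The same 5 were higher in the squamous list (median 9961 CPM, against 4291.5 CPM in the other 7), and replicates 3 and 4 were also low in ciliated (22.2 to 53.4 CPM) and secretory markers (71.4 to 299 CPM), with a squamous median of 2402 CPM. Results below are also given without these 5 where that changes them.

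Between 3.03% and 6.15% of all pig counts in a library came from the mitochondrial chromosome, and this share followed the replicate number, not the treatment. With PBS at 2 h it was 5.11%, 6.15%, 3.35% and 3.35% in replicates 1 to 4, with flagellin at 2 h it was 4.46%, 4.87%, 3.76% and 3.64%, and with SB203580 plus flagellin at 2 h it was 4.29%, 5.54%, 4.00% and 3.93%. At 24 h the same order of replicates gave 5.52%, 5.34%, 3.32% and 3.03% with PBS, 5.29%, 5.34%, 3.03% and 3.65% with flagellin, and 4.98%, 5.59%, 3.80% and 3.57% with SB203580 plus flagellin. In all 6 groups both libraries of replicates 1 and 2 lay above both libraries of replicates 3 and 4, while the groups overlapped one another. Group means ran only from 4.18% (flagellin at 2 h) to 4.49% (PBS at 2 h), whereas replicates 1 and 2 averaged 5.21% and replicates 3 and 4 averaged 3.54% (12 libraries each). The 5 libraries low in secretory and ciliated markers spanned 4.29% to 6.15%, with a median of 5.34%, beside a median of 5.29% in the other 7 libraries of replicates 1 and 2. In these bulk cultures, fewer cells of a type and less RNA per cell cannot be told apart.

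**Figure D1:**
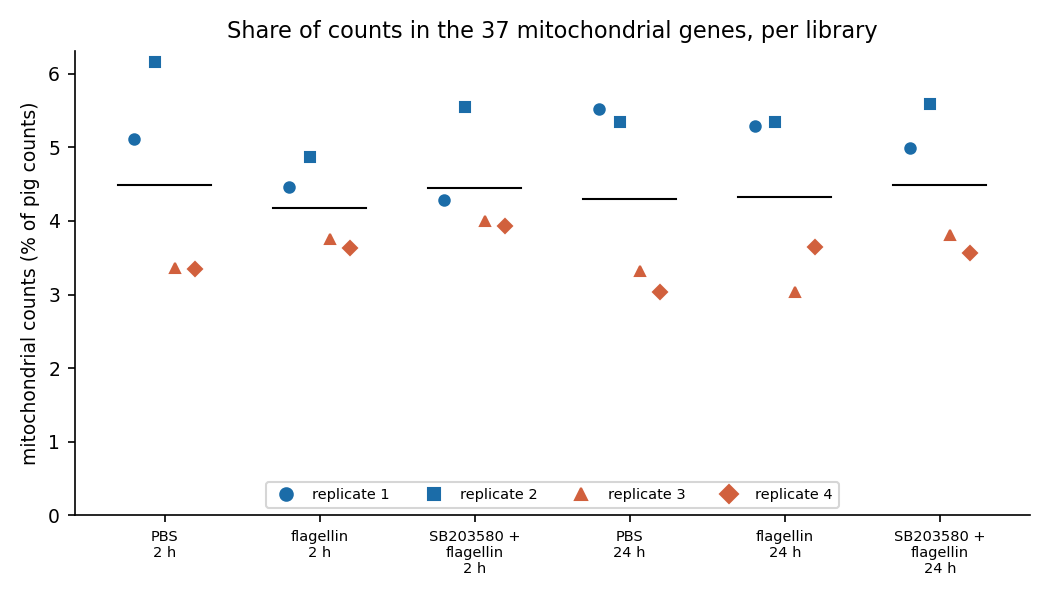
Percent of pig counts from the 37 mitochondrial genes (y axis) in each of the 24 libraries, by treatment and time (x axis); symbols mark the replicate number. Replicates 1 and 2 lie between 4.29% and 6.15% in all groups and replicates 3 and 4 between 3.03% and 4.00%.

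The counts came almost wholly from one annotated strand. The 28 genes on the plus strand held 99.8% to 99.9% of the mitochondrial counts in a library, and the 9 genes on the minus strand (ND6 and 8 tRNA genes) held 0.0701% to 0.232%. Protein-coding genes took 96.8% to 99.4% of the mitochondrial counts and the ribosomal RNA genes 0.537% to 3.14%. How RNA was selected for the libraries is not described here. Levels of the ribosomal RNAs below are therefore levels in the libraries and are not read as amounts in the cells. Use of strand in the counting is not given in the sources used here. For ND6 and the minus-strand tRNA genes reads of the gene and reads of the opposite strand's RNA cannot be told apart.

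To compare genes with one another, levels were divided by gene length (CPM per kb). COX1, the catalytic core of cytochrome c oxidase (complex IV; chromosome MT, bases 6511 to 8055, plus strand, ENSSSCG00000018075), had the highest mean level per length, 16421 CPM per kb over the 24 libraries. It exceeded the next gene, COX3 at 4879 CPM per kb, in 24 of 24 libraries, and by plain mean CPM it ranked 1 among all pig genes. COX3 (9800 to 10583) in turn exceeded COX2 (8203 to 8890; 2773 CPM per kb) in 24 of 24. Below these the order differed between replicates 1 and 2 and replicates 3 and 4, so a mean over all 24 libraries describes neither. In replicates 1 and 2, COX2 (3779 CPM per kb) lay above ATP6 (3071 CPM per kb) in 12 of 12 libraries, ATP6 above ND5 (2409 CPM per kb) in 9, and ND5 above ATP8 (1677 CPM per kb) in 12. In replicates 3 and 4, ND5 (2823 CPM per kb) came next after COX3 and lay above ND4 (1989 CPM per kb) in 12 of 12 libraries. There ND4 lay above COX2 (1767 CPM per kb) in 11, COX2 above ATP6 (1719 CPM per kb) in only 7, and ATP6 above ND4L (1383 CPM per kb) in 12.

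The lower part of the order held the remaining complex I genes, CYTB and the ribosomal RNAs. ATP8 changed place most: it ranked 6 of these 15 genes in replicates 1 and 2, at 1212 to 2517 CPM per kb and not separated from ND4 (above it in 6 of 12 libraries), and 12 in replicates 3 and 4, at 207 to 342 CPM per kb and below ND3 in 12 of 12. In replicates 1 and 2, ND4 (1599 CPM per kb) exceeded ND4L (1187 CPM per kb) in 12 of 12 libraries, and ND4L, ND2 (1149 CPM per kb) and ND1 (1124 CPM per kb) were not separated, the upper of each neighbouring pair leading in 6 and 7 of 12. In replicates 3 and 4, ND4L lay above ND2 (877 CPM per kb) in 12 of 12, ND2 above CYTB (492 CPM per kb), the one complex III subunit of this genome, in 12, and CYTB above ND1 (487 CPM per kb) in 7. ND1 lay above ND3 in 24 of 24 libraries. The 16S ribosomal RNA of the large mitochondrial subunit (2274 to 3844) averaged 332 CPM per kb in replicates 1 and 2 and 143 CPM per kb in replicates 3 and 4, and the 12S ribosomal RNA of the small subunit (1246 to 2205) 152 and 143 CPM per kb. ND6 (14739 to 15266), a complex I subunit and the one protein-coding gene on the minus strand, had the lowest mean in both, 130 and 96.1 CPM per kb, with 12S above it in 16 of 24 libraries.

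**Figure D2:**
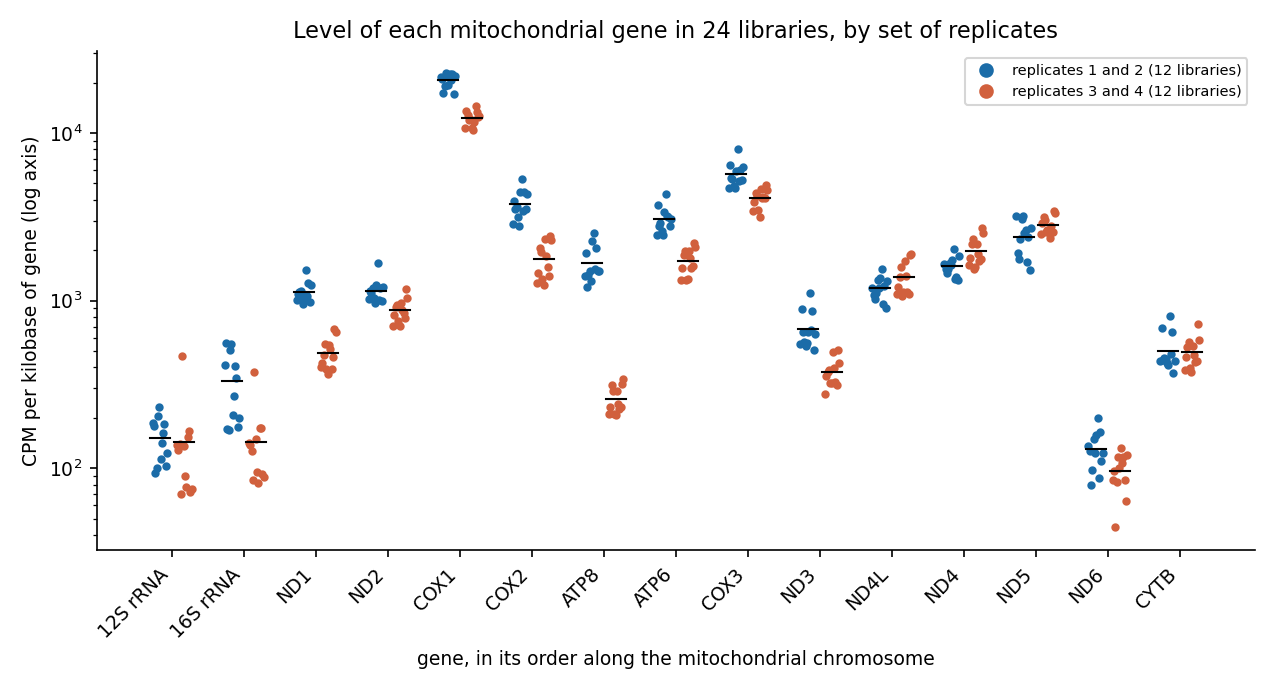
Level per gene length (CPM per kb, log axis) of the 15 protein-coding and ribosomal RNA genes, 1 point per library, coloured by replicates 1 and 2 or replicates 3 and 4. COX1 is highest in every library, and ATP8 has the widest gap between the colours.

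No mitochondrial gene passed the main test for flagellin or for flagellin after SB203580. That test held no term for the replicate number, and with such a term ND6 was called for flagellin at 2 h, as given below. In edgeR's quasi-likelihood test with Benjamini-Hochberg adjustment over the 14172 pig genes tested, 0 of 30 members were called at an adjusted p under 0.05 for flagellin against PBS at 2 h, where 0.325% of all tested genes were called. The count was also 0 of 30 for flagellin against PBS at 24 h (0% of all genes), for SB203580 plus flagellin against flagellin at 2 h (0.00706%) and at 24 h (0%), and for SB203580 plus flagellin against PBS at 2 h (0.183%) and at 24 h (0.00706%). At an unadjusted p under 0.05 the numbers of members in these 6 comparisons, in the order given, were 1, 0, 0, 1, 0 and 1, and DESeq2 called 0 in each. Comparisons with PBS share the PBS libraries, and those with flagellin share the flagellin libraries. The change of the flagellin effect from 2 h to 24 h, and that of the SB203580 effect, were called for 0 of 30 members (0.0423% and 0% of all genes), with 1 member at an unadjusted p under 0.05 in each.

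ND6 was the member nearest to a call for flagellin against PBS at 2 h. At 2 h it was 83.6, 106, 70.1 and 56.5 CPM with PBS, 41.7, 51.9, 23.4 and 44.0 CPM with flagellin, and 58.0, 65.4, 33.6 and 63.5 CPM with SB203580 plus flagellin. All 4 flagellin libraries lay below all 4 PBS libraries, and it was the only member of 30 whose groups did not overlap in this comparison. Of all tested genes 3.06% were lower without overlap, so 1 of 30 is close to the share over all genes. The log2 difference, flagellin minus PBS, was −0.96 (SE 0.285; adjusted p = 0.328), so ND6 was not called in the main fit. With the replicate number as a block the same difference was called (−0.96; adjusted p = 0.0193; 1.07% of all genes called), as it was with a term for the pair of replicate numbers at each time (−0.94; adjusted p = 0.0208; 2.24% of all genes called). Within replicates 1 and 2 the difference was −1.03, and within replicates 3 and 4 it was −0.85, neither called alone. SB203580 plus flagellin minus flagellin was 0.44 (SE 0.284; adjusted p = 1), higher in 4 of 4 same-numbered libraries but overlapping. By 24 h ND6 stood at 78.6, 65.6, 61.8 and 52.7 CPM with PBS, 71.9, 67.0, 44.8 and 51.2 CPM with flagellin, and 46.5, 86.5, 62.1 and 44.8 CPM with SB203580 plus flagellin, and the 3 groups overlapped.

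For the other members the 2 h flagellin values were mostly below 0 and depended on which libraries were used. Only 3 of the 30 log2 differences were positive, with a median of −0.23 against 0.00 over all tested genes. Of the 13 protein-coding genes 1 was positive, with a median of −0.22. Without the 5 libraries low in secretory and ciliated markers, 10 of the same 13 were positive, with a median of 0.04. Among the tRNA genes, number 12 (8059 to 8129, minus strand, between COX1 and COX2) was lower without overlap with SB203580 plus flagellin at 24 h, where it was 1.56, 2.76, 2.14 and 2.30 CPM, than with flagellin, where it was 5.51, 3.71, 3.29 and 5.02 CPM. That difference was −1.04 on the log2 scale (SE 0.295; not called); 0.289% of all genes were lower without overlap there. Against PBS at 24 h the same gene was again lower without overlap and not called, as were 1.75% of all genes by overlap.

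**Figure D3:**
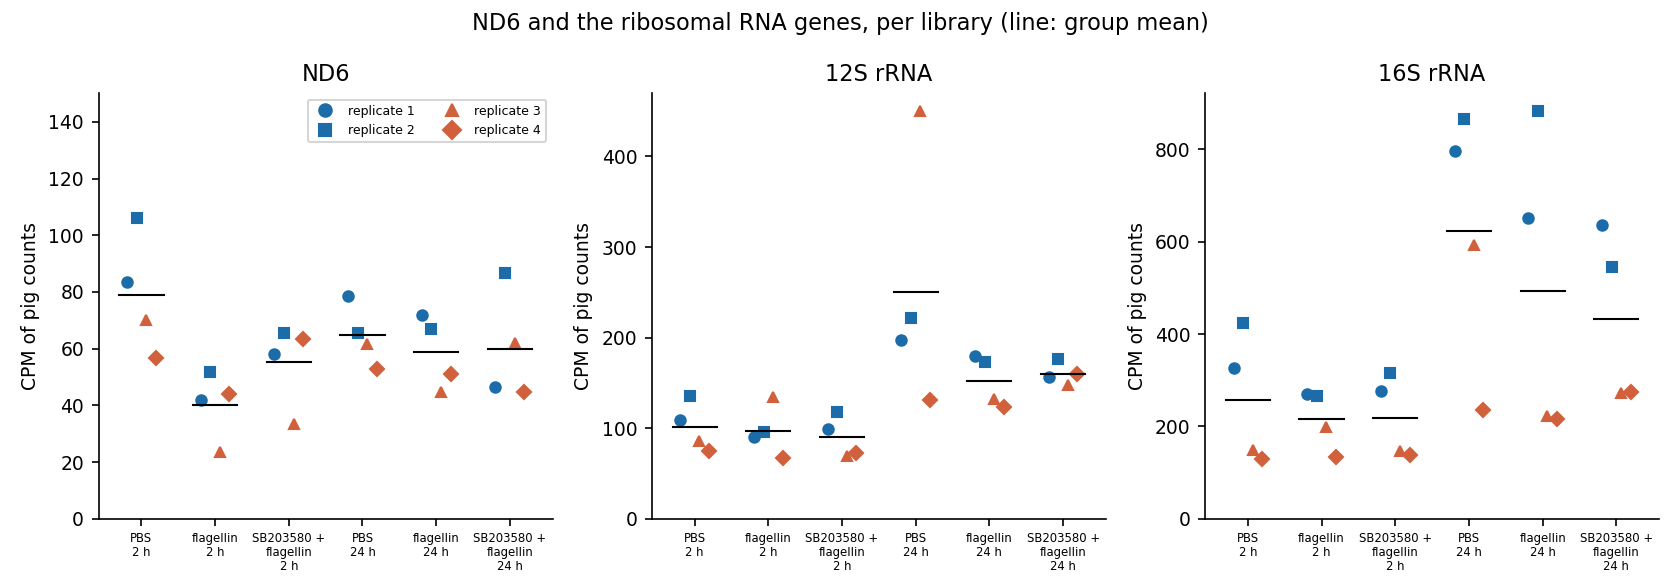
CPM of ND6, 12S rRNA and 16S rRNA (y axis of each panel, from 0) in each library, by treatment and time (x axis); symbols mark the replicate number. At 2 h the 4 flagellin values of ND6, 23.4 to 51.9 CPM, lie below the 4 PBS values, and at 24 h both ribosomal RNAs reach values above any at 2 h.

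Between 2 h and 24 h, averaged over the 3 treatments, levels in the libraries rose for the ribosomal RNAs and fell for ND4L and ND4. The fall of these messengers was mostly in replicates 3 and 4. At 2 h, 12S was 109, 136, 86.3 and 74.2 CPM with PBS, 90.0, 96.0, 135 and 67.1 CPM with flagellin, and 98.6, 118, 69.5 and 72.5 CPM with SB203580 plus flagellin. At 24 h it was 197, 222, 450 and 131 CPM with PBS, 179, 173, 132 and 123 CPM with flagellin, and 156, 176, 148 and 159 CPM with SB203580 plus flagellin. Same-numbered libraries were higher at 24 h in 4 of 4 with PBS, 3 of 4 with flagellin and 4 of 4 with SB203580 plus flagellin. The averaged log2 change was 0.90 (SE 0.178; adjusted p = 0.00063), in a comparison where 31.7% of all tested genes were called (16.6% higher and 15.2% lower).

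16S moved with it. At 2 h, 16S was 327, 424, 150 and 129 CPM with PBS, 271, 266, 198 and 133 CPM with flagellin, and 276, 315, 146 and 138 CPM with SB203580 plus flagellin. At 24 h it was 796, 867, 593 and 235 CPM with PBS, 652, 883, 222 and 215 CPM with flagellin, and 637, 545, 272 and 274 CPM with SB203580 plus flagellin. Every library at 24 h lay above its same-numbered library at 2 h in all 3 treatments, although the groups overlapped, with replicates 1 and 2 the higher at both times. The averaged log2 change was 1.15 (SE 0.316; adjusted p = 0.0083). Leaving out each of the 24 libraries in turn kept both calls, with 12S between 0.75 and 0.98 and 16S between 0.96 and 1.28.

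ND4L and ND4 lie side by side on the chromosome (11069 to 11365 and 11359 to 12736, sharing 7 bases) and encode membrane subunits of complex I. At 2 h, ND4 was 2408, 2791, 3008 and 2608 CPM with PBS, 2025, 2140, 3015 and 3197 CPM with flagellin, and 1820, 2557, 3728 and 3495 CPM with SB203580 plus flagellin. At 24 h it was 2311, 2239, 2130 and 2180 CPM with PBS, 2278, 2120, 2245 and 2468 CPM with flagellin, and 1847, 1902, 2389 and 2429 CPM with SB203580 plus flagellin. With PBS all 4 libraries at 24 h lay below all 4 at 2 h, and in the other treatments the times overlapped. The averaged log2 change was −0.34 for ND4 (adjusted p = 0.0133) and −0.35 for ND4L (adjusted p = 0.0101). In replicates 3 and 4, ND4 averaged 2304 CPM per kb at 2 h and 1674 at 24 h, against 1662 and 1536 in replicates 1 and 2. For ND4L these means were 1643 and 1123, against 1212 and 1161 CPM per kb. ND4 was higher at 24 h in replicate 1 with flagellin and with SB203580 plus flagellin, and lower in all other same-numbered libraries. How reads in the shared bases were assigned is not given in the sources used here; the ratio of ND4L to ND4 counts was 0.155 ± 0.00981 at 2 h and 0.154 ± 0.0146 at 24 h (SD, n = 12).

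Markers of other cell types moved over the same time: the 5 leukocyte markers summed to 14.4 ± 7.03 CPM at 2 h and 29.1 ± 7.09 CPM at 24 h, and the 3 endothelial markers, of which KDR made up nearly all and CDH5 was 0 in 19 of 24 libraries, to 170 ± 57.2 and 349 ± 131 CPM (SD, n = 12). Their part in the mitochondrial values was not tested.

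The 2 ribosomal RNAs, ND4L and ND4 were the members called of 30, and the number was larger once the replicate number entered the fit. With the replicate block, 12 members were called (46.5% of all genes): 12S, 16S and tRNA genes 20 and 22 higher, and ND1, ND2, COX2, ATP8, ATP6, COX3, ND4L and ND4 lower. Of these, tRNA gene 20 passed the filter on low counts mainly through libraries at 24 h, which favoured its direction. With a term for the pair of replicate numbers at each time in place of the block, 12 were called as well (54.0%), and the 8 lower members were the same. With the block COX2 had a log2 change of −0.48 (adjusted p = 0.000342), ND1 −0.33 (adjusted p = 0.00408) and ATP6, the proton channel subunit of the ATP synthase, −0.32 (adjusted p = 0.013). Within replicates 1 and 2 alone only the 2 ribosomal RNAs were called (45.7% of all genes), whereas within replicates 3 and 4 there were 3 higher and 11 lower (44.1%). COX1 did not follow: its averaged change was 0.10 in the main fit (adjusted p = 0.752) and 0.07 with the block (adjusted p = 0.396).

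Taken by treatment, the time comparison called fewer members. With PBS, 12S alone rose among the 30 (log2 change 1.23, SE 0.311, adjusted p = 0.0151), where 10.2% of all genes were called (5.28% higher and 4.88% lower). Scaled to the plain total of pig counts, the genes called with PBS went from 748 higher and 692 lower to 794 and 358, and those with SB203580 plus flagellin from 525 and 450 to 527 and 277, with 12S still the one member called with PBS. The 12S call rests on single libraries: it was lost without replicate 3 at 24 h (the 450 CPM library) or without replicate 3 at 2 h, and over the leave-one-out fits the value ran from 0.80 to 1.46 with adjusted p up to 0.0843. Within replicates 1 and 2 it was 0.72 (adjusted p = 0.206) and within replicates 3 and 4 it was 1.80 (adjusted p = 0.00909). 16S with PBS was 1.21 (SE 0.548; adjusted p = 0.178), and with the block it was called (1.26; adjusted p = 0.00116). ND4L and ND4 were the only members whose PBS groups did not overlap between the times, at −0.42 and −0.35, both uncalled, against 5.50% of all genes lower and 11.0% higher without overlap. With the block, 9 members were called with PBS (22.5% of all genes), 2 higher and 7 lower, and with the term for the replicate pairs 11 (33.2%), the same 2 higher and 9 lower.

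With flagellin, 0 of 30 members were called (7.90% of all genes), and with SB203580 plus flagellin again 0 of 30 (6.88%). At an unadjusted p under 0.05 there were 4 and 5 members, and DESeq2 called 0 and 1, the latter tRNA gene 12. The 16S values were 1.26 (adjusted p = 0.182) and 0.98 (adjusted p = 0.334), and the 12S values 0.66 (adjusted p = 0.213) and 0.80 (adjusted p = 0.132). With SB203580 plus flagellin 12S was higher at 24 h without overlap (6.69% of all genes higher and 4.09% lower), and with flagellin so was tRNA gene 20 (6.37% and 6.05%). That tRNA gene had 3 to 6 counts in the flagellin libraries at 2 h and 10 to 14 at 24 h. It passed the filter on low counts mainly through libraries at 24 h, so the filter favoured this direction. With the replicate block 1 member was called with flagellin (16S, 0.99, adjusted p = 0.00731; 18.8% of all genes) and 4 with SB203580 plus flagellin (12S and 16S higher, ND4 and tRNA gene 12 lower; 17.1%). With the term for the replicate pairs the numbers were 2 (28.9%) and 5 (27.1%). COX3 is an example of the uncalled messengers, at −0.56 with PBS, −0.03 with flagellin and −0.13 with SB203580 plus flagellin.

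**Figure D4:**
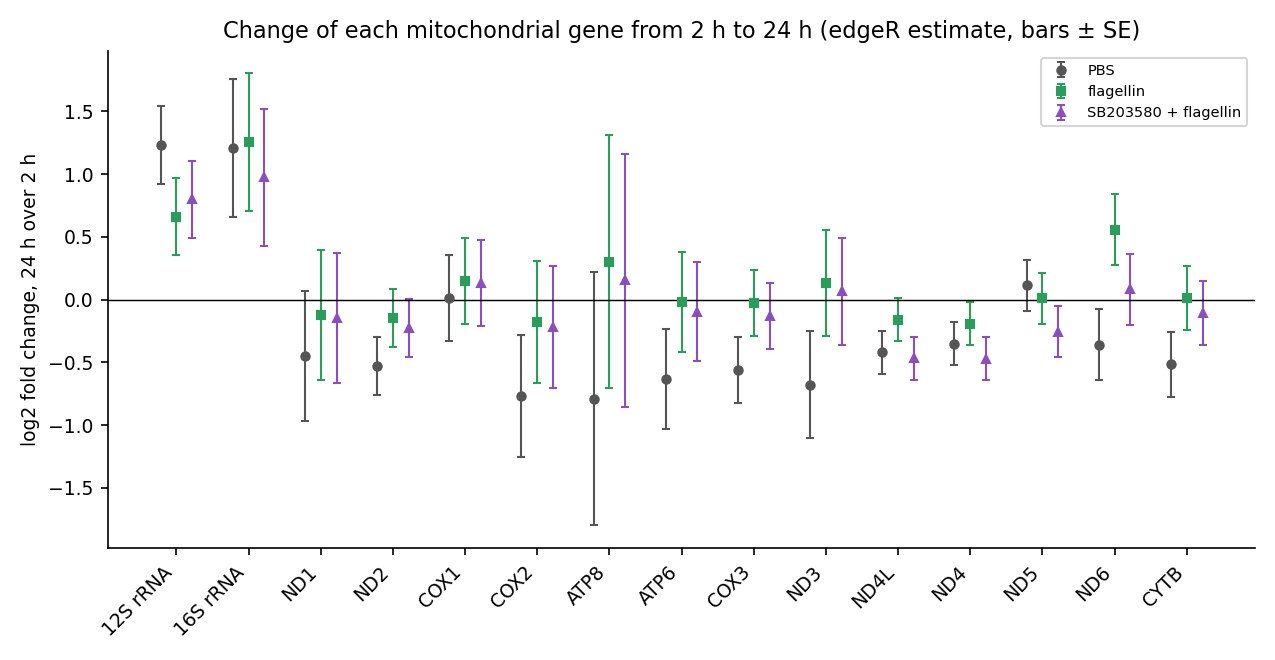
Log2 change from 2 h to 24 h with its standard error (y axis) for the 15 protein-coding and ribosomal RNA genes (x axis) in each of the 3 treatments. 12S and 16S lie above 0 in all 3, and COX2 lies below 0 in all 3 with error bars that reach 0 for flagellin and SB203580 plus flagellin.

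Far more members differed between the pairs of replicate numbers than between treatments, and so did far more of all tested genes. Between the pairs 52.0% of all genes were called at 2 h and 64.6% at 24 h, against at most 0.325% in a treatment comparison. ATP8, a small subunit of the ATP synthase (8959 to 9162, ENSSSCG00000018080), showed the difference between the pairs most among the protein-coding genes. At 2 h it was 463, 513, 59.3 and 49.2 CPM with PBS, 247, 291, 64.3 and 59.3 CPM with flagellin, and 306, 305, 64.8 and 69.8 CPM with SB203580 plus flagellin. At 24 h it was 305, 267, 43.0 and 42.3 CPM with PBS, 285, 391, 43.0 and 47.6 CPM with flagellin, and 314, 419, 46.3 and 47.3 CPM with SB203580 plus flagellin. No library of replicates 3 and 4 came near one of replicates 1 and 2 (means 53.0 and 342 CPM). The p-values for this division, here and below, measure spread between libraries, not between animals. The log2 difference, replicates 3 and 4 minus 1 and 2, was −2.53 at 2 h (SE 0.162; adjusted p = 7.03e-10) and −3.01 at 24 h (SE 0.164; adjusted p = 3.4e-11).

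The gap at ATP8 was wider than at ATP6, which begins inside it and shares 43 bases with it. ATP6 averaged 2091 CPM in replicates 1 and 2 and 1171 CPM in replicates 3 and 4, so that the ratio of ATP8 to ATP6 counts was 0.163 ± 0.0209 and 0.0454 ± 0.00300 (SD, 12 libraries each), with no overlap. As a percent of mitochondrial counts, ATP8 was 0.655% and 0.149%, again with no overlap. How the reads were spread over the bases of ATP8 was not tested, since the table holds 1 count per gene.

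COX1, COX2 and ND1 were also apart in all 24 libraries. At 2 h COX1 was 29677, 34870, 16019 and 18024 CPM with PBS, 26902, 29596, 19682 and 18560 CPM with flagellin, and 26288, 33626, 19300 and 19627 CPM with SB203580 plus flagellin. At 24 h it was 35010, 33672, 18650 and 16656 CPM with PBS, 33214, 32312, 16617 and 20898 CPM with flagellin, and 32012, 34590, 22447 and 20629 CPM with SB203580 plus flagellin. The lowest of the 12 libraries of replicates 1 and 2 thus lay above the highest of replicates 3 and 4, with means of 31814 and 18926 CPM. The COX1 log2 difference was −0.74 at 2 h (adjusted p = 2.82e-06) and −0.94 at 24 h (adjusted p = 6.41e-08). ND1, a complex I subunit (3922 to 4876), averaged 1074 and 465 CPM, and COX2, which carries the copper centre that accepts electrons from cytochrome c, 2600 and 1216 CPM. Both differed at 2 h (−1.09 and −0.97) and at 24 h (−1.54 and −1.44).

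Not every member was lower in replicates 3 and 4. ND4, ND4L and ND5 were higher there at 2 h by 0.44, 0.41 and 0.38 on the log2 scale (adjusted p = 0.00116, 0.00158 and 0.0289), and at 24 h their differences were −0.01, −0.18 and −0.06, none called. As a percent of mitochondrial counts ND5 was 8.37% in replicates 1 and 2 and 14.5% in replicates 3 and 4 with no overlap, and ND4 was 4.23% and 7.72%. COX1 took 61.1% and 53.6%. CYTB averaged 575 and 560 CPM and 12S 146 and 137 CPM, with libraries of both pairs overlapping.

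Over the 30 members, 7 were higher and 15 lower in replicates 3 and 4 at 2 h, where 52.0% of all tested genes were called (26.2% higher and 25.8% lower), and 2 were higher and 16 lower at 24 h, where 64.6% were (31.6% and 32.9%). Groups did not overlap for 1 higher and 12 lower members at 2 h (14.4% and 11.5% of all genes) and for 1 higher and 13 lower at 24 h (25.1% and 10.1%). The lower ones included tRNA genes 7, 8, 10, 14 and 21 at both times. With 0 to 11 counts per library in replicates 3 and 4, these passed the filter on low counts through replicates 1 and 2. The filter thus allowed them this direction only. tRNA gene 15, the higher one, had 0 to 6 counts in replicates 1 and 2 and passed mainly through replicates 3 and 4. Any calls of these genes carry the same limit. With scaling to the plain total at 24 h, the median over all genes moved from −0.02 to 0.11, all genes called went from 4484 higher and 4668 lower to 5506 and 3387, and the members called were 2 higher and 14 lower. The difference between the replicate pairs itself differed between 24 h and 2 h for 4 members, ND1, COX2, ND4L and ND4, all more negative at 24 h, where 35.0% of all genes were called (17.5% more positive and 17.4% more negative). Scaled to the plain total, genes called there went from 2487 and 2473 to 2893 and 1501, and 1 member, ND4L, was called. Leaving out single libraries moved the count of 4 between 3 and 12: it was 12 without PBS at 2 h replicate 2, and 8 without PBS at 2 h replicate 4 or without flagellin at 24 h replicate 1. With a separate term for each group and pair of replicates, 6 members were called in the same contrast (33.9% of all genes). Markers moved with the division too: the summed secretory list was 164 to 786 CPM in replicates 1 and 2 and 71.4 to 299 CPM in replicates 3 and 4, and the squamous list 2502 to 11429 and 2173 to 3052 CPM. Their part in the mitochondrial values was not tested.

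The 22 tRNA genes together gave 25.3 CPM in replicates 1 and 2 and 11.6 CPM in replicates 3 and 4. Of these, 5 were picked because every count in replicates 1 and 2 exceeded every count in replicates 3 and 4. The gap in their sum, and its absence from the sum of the rest, follow from that choice. tRNA gene 7 (6129 to 6196, directly after ND2) had 61 to 173 counts in each library of replicates 1 and 2 and 0 to 2 in each of replicates 3 and 4. tRNA gene 14 (8891 to 8957), which lies between COX2 and ATP8, had 77 to 328 and 1 to 7 counts. tRNA gene 10 (6379 to 6444) had 63 to 175 and 0 to 11, and tRNA gene 21 (16482 to 16549, after CYTB) 17 to 70 and 0 to 4. With tRNA gene 8 (6203 to 6270; 38 to 83 and 0 to 5 counts) these 5 summed to 15.1 CPM in replicates 1 and 2 and 0.329 CPM in replicates 3 and 4.

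The other 17 tRNA genes summed to 10.2 and 11.3 CPM. Among them, tRNA gene 2 (2206 to 2273) had 50 counts summed over replicates 1 and 2 and 0 over replicates 3 and 4. tRNA gene 15 (10584 to 10652, between COX3 and ND3) went the other way, with 28 counts summed over replicates 1 and 2 and 139 over replicates 3 and 4. tRNA gene 12, the most counted outside the 5, had 1599 and 1401 counts. Of the 5 genes with the gap, 7, 14 and 21 are annotated on the plus strand and 8 and 10 on the minus strand. Which strand's RNA gave their reads is not known, since use of strand in the counting is not given. Reads of a mature tRNA and of a precursor that still holds it cannot be told apart in these counts.

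**Figure D5:**
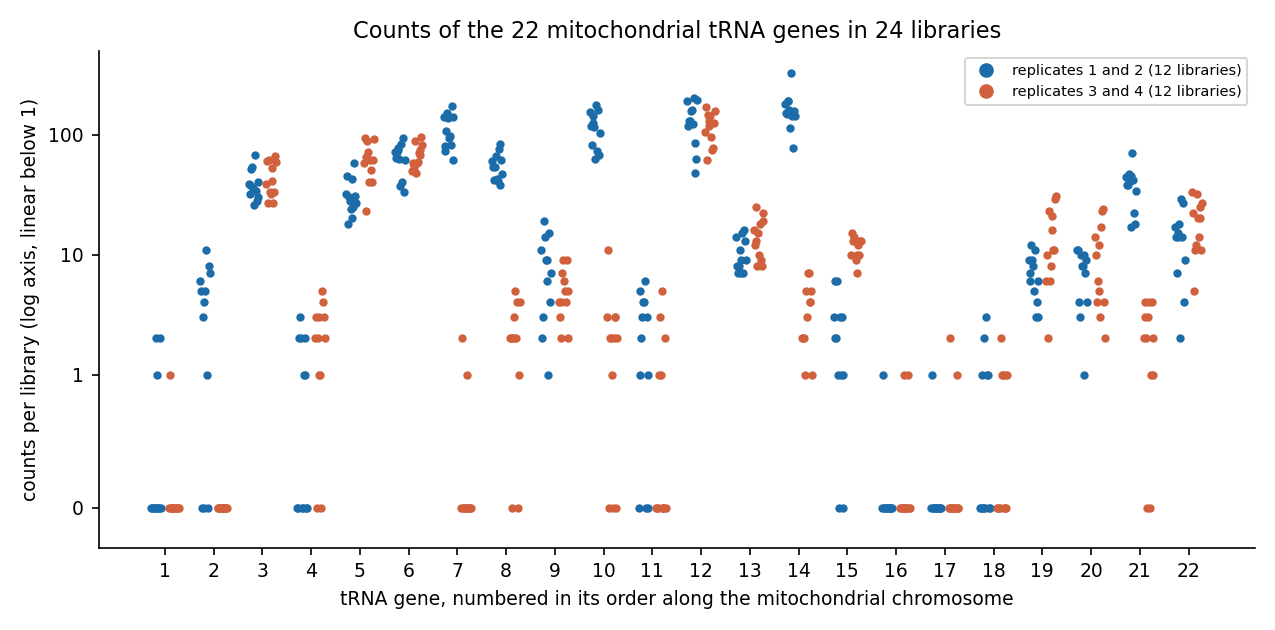
Counts of each of the 22 tRNA genes in order along the chromosome (x axis), 1 point per library, on an axis that is logarithmic above 1 and linear below; colours mark replicates 1 and 2 or replicates 3 and 4. Genes 7, 8, 10, 14 and 21 separate the colours, and gene 15 has more counts in replicates 3 and 4.

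The nuclear partners of these genes were read from lists of 239 symbols, of which 201 were matched and 200 tested. With flagellin or SB203580 plus flagellin, 0 of the 200 were called by the main fit in each of the 6 treatment comparisons, as for the mitochondrial genes. Over time, averaged over treatments, 24 of 64 nuclear genes of complexes I to V fell and 0 rose (median −0.15 against 0.00 over all genes). Of all tested genes 15.2% fell and 16.6% rose in this comparison. The 24 were 13 of 28 for complex I, 0 of 4 for complex II, 3 of 7 for complex III, 4 of 14 for complex IV and 4 of 11 for complex V. NDUFA5, a complex I subunit, went from 53.1 ± 5.96 to 38.6 ± 6.13 CPM (SD, n = 12; log2 change −0.49, adjusted p = 0.000116), UQCRQ of complex III changed by −0.39 (adjusted p = 1.15e-05) and ATP5MC1 of the ATP synthase by −0.45 (adjusted p = 0.0014).

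While the mitochondrial ribosomal RNAs rose, 27 of 65 nuclear genes for mitochondrial ribosomal proteins fell and 6 rose (15.2% of all genes fell and 16.6% rose in this comparison; list median −0.14). MRPL58, a peptidyl-tRNA hydrolase of that ribosome, changed by −0.64 (adjusted p = 7.02e-09) and MRPL15 by −0.53 (adjusted p = 9.13e-09). In the list for RNA processing 6 of 26 rose and 8 fell (list median −0.05), against the same 16.6% and 15.2%. Among them were REXO2, an exonuclease that degrades short mitochondrial RNAs, from 57.6 to 32.1 CPM (−0.90; adjusted p = 1.69e-06), and RPUSD4, a pseudouridine synthase acting on 16S, at 0.56 (adjusted p = 0.000176). Among transcription factors of the mitochondrial genome TFB2M fell by 0.33 (adjusted p = 0.0382), while TFAM at 0.14 and the polymerase POLRMT at 0.04 were not called. Of 13 mitophagy genes 4 were called, a share close to the 31.7% of all genes; all 4 rose, with BNIP3L from 144 to 195 CPM (list median 0.12).

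The replicate pairs also differed in these nuclear genes. Of the 64 in complexes I to V, 29 were lower and 0 higher in replicates 3 and 4 at 2 h. Over all tested genes 25.8% were lower and 26.2% higher there. At 24 h 52 of the 64 were lower and 1 higher, against 32.9% lower and 31.6% higher over all genes. Regulators differed by time: TFAM, which packages and transcribes mitochondrial DNA, was higher in replicates 3 and 4 at 2 h (0.24; adjusted p = 0.0115) and lower at 24 h (−0.36; adjusted p = 0.000387). NRF1, a nuclear factor for respiratory genes, was lower at 24 h (17.2 and 25.6 CPM; −0.71, adjusted p = 8.31e-08). LRPPRC, which stabilises mitochondrial messengers, was lower at both times (−0.22 and −0.32).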

How the data were processed

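RNA of 24 libraries was sequenced paired-end, per the labels. The authors deposited 1 table of whole-number counts of reads per gene. The tools named in the submitters' processing notes are Subread 1.4.6-p1, featureCounts and STAR 2.4.0a, and the build given there is GRCm38, a mouse build, although the feature identifiers are of pig; how strand and overlapping genes were handled is not stated in those notes or the labels. The 5988 features without a pig identifier (0.00131% of counts) entered neither library sizes nor tests. All 37 mitochondrial genes have the same coordinates as in RefSeq's Sscrofa11.1. The ribosomal RNA genes are called 12S and 16S from their length and order, and tRNA genes are numbered along the chromosome.

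Levels are CPM of the plain pig total. Tests used edgeR 4.0.16 (R 4.3.3; filterByExpr, TMM, robust quasi-likelihood F test, 1 term per group over all 24 libraries, Benjamini-Hochberg over 14172 genes, called under 0.05), and the script was tested on simulated data. For replicates 3 and 4 against 1 and 2, a term for that division at each time was added. Its p-values measure spread between libraries, not between animals. Alternatives were RLE, plain total and nuclear-only TMM scaling, no count filter, DESeq2 1.42.0, a replicate block, the division term, only the groups compared, and each library left out. The exclusion of 5 libraries, fits within each pair of replicate numbers, the averaged time comparison, the change of the division over time and the repeats for nuclear lists were chosen after seeing the data. Members and lists were chosen with earlier results of these data known. All protein-coding and ribosomal RNA genes are named, and of nuclear lists at most 3 called genes per direction and fixed regulators.

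Same-numbered libraries deviated together from their group means (correlations 0.211 to 0.797 over 36 pairs of libraries). The replicate number was therefore used as a block in an alternative fit, while the main fit held no such term. No label states a pairing. In 21 of the 36 the best match carried the same number, and in the other 15 it was the other number of the same division, so these correlations do not separate pairing by number from the division. No 2 libraries of a group agreed within sampling noise.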

Additional observations from a re-analysis of the deposited data

Results flagged for a closer look

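For 4 mitochondrial genes the difference between replicates 3 and 4 and replicates 1 and 2 was itself different at 24 h and at 2 h, by a test of that change in edgeR with Benjamini-Hochberg adjustment. The change in the log2 difference was −0.4533 for ND1 (adjusted p = 0.0228), −0.474 for COX2 (adjusted p = 0.0314), −0.5916 for ND4L (adjusted p = 0.00221) and −0.446 for ND4 (adjusted p = 0.0174). ND1 and COX2 were lower in replicates 3 and 4 at both times and by more at 24 h. ND4L and ND4 were higher there at 2 h and not called at 24 h. The test of change was made for 30 members, and 35.0% of all genes were called in it. Its p-values measure spread between libraries, not between animals. With a separate term for each group and pair of replicates, the same change was called for 6 members (33.9% of all genes). Scaled to the plain total, ND4L alone was called, and leaving out single libraries moved the count of 4 between 3 and 12 (12 without PBS at 2 h replicate 2, 8 without PBS at 2 h replicate 4 or without flagellin at 24 h replicate 1). Of 102 groups of 4 libraries, 0 had a library far enough from the others to be singled out.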

How the results depend on the processing

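Counts of called members moved most with the replicate number. For flagellin against PBS at 2 h the count of 0 became 1 with the replicate block and 1 with the division term. For 24 h against 2 h with PBS the count of 1 became 9 with the block, 11 with the division term, 0 with only the groups compared, 6 within replicates 1 and 2 and 6 within replicates 3 and 4, and 0 to 1 leaving out single libraries (0 without PBS at 2 h replicate 3 or PBS at 24 h replicate 3). With flagellin the count of 0 became 1 with the block, 2 with the division term, and 1 and 3 within the pairs of replicates. With SB203580 plus flagellin the count of 0 became 1 with DESeq2, 4 with the block, 5 with the division term, 1 without the 5 libraries, 1 and 7 within the pairs, and 0 to 3 leaving out single libraries (3 without replicate 1 at 2 h, 1 without replicate 1 at 24 h). Averaged over treatments the count of 4 became 12 with the block, 12 with the division term, 10 without the 5 libraries, 2 and 14 within the pairs, and 4 to 6 leaving out single libraries. The 4 changes of the division over time became 1 with the plain total and 3 to 12 leaving out single libraries (12 without PBS at 2 h replicate 2, 8 without PBS at 2 h replicate 4, 8 without flagellin at 24 h replicate 1). The block changed no other call among treatment comparisons, and it cannot be fitted to the division, which is nested in the replicate number.

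For ATP8 with SB203580 plus flagellin, 24 h against 2 h, the log2 change of 0.15 became −0.6184 within replicates 3 and 4 (adjusted p = 0.0325); the cause was not tested.

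For the 200 nuclear genes, 1 (GABPA, named after its value was seen) was called for flagellin at 2 h with the division term. With PBS the 23 called over time became 8 with the plain total, 10 without the count filter, 46 with the block, 82 with the division term, 5 with only the groups compared, 47 and 47 within the pairs, and 8 to 27 leaving out single libraries. With flagellin the 18 became 52, 90, 3, 43 and 55 under the block, the division term, only the groups compared and the pairs, and 8 to 20 leaving out single libraries. With SB203580 plus flagellin the 20 became 13 with the plain total, 11 without the filter, 34 with DESeq2, 51 with the block, 84 with the division term, 2 with only the groups compared, 44 and 45 within the pairs, and 8 to 22 leaving out single libraries. The averaged 84 became 138 with the division term (77 to 89 leaving out single libraries), and the 78 changes of the division over time became 49 with the plain total.

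For the 64 nuclear genes of complexes I to V, the 5 called with PBS over time became 1, 2, 15, 22, 1, 10 and 21 under the plain total, no filter, the block, the division term, only the groups compared and the pairs, and 2 to 6 leaving out single libraries. With flagellin the 5 became 3 without the filter, 8 with DESeq2, 19 with the block, 31 with the division term, 0 with only the groups compared, 12 without the 5 libraries, 28 within replicates 3 and 4, and 2 to 6 leaving out single libraries. With SB203580 plus flagellin the 6 became 3 with the plain total, 11 with DESeq2, 21 with the block, 33 with the division term, 0 with only the groups compared, 13 and 18 within the pairs, and 1 to 7 leaving out single libraries (1 without replicate 2 at 2 h). Averaged, the 24 became 39 with the block, 47 with the division term and 47 within replicates 3 and 4. The 29 of the division at 2 h became 19 without the filter, and the 28 changes of it over time became 12 with the plain total.

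Of 7665 single-gene values under alternatives, 7027 kept direction and side of the threshold, 39 lost and 110 gained a call, 488 changed sign without a call on either side, and 1 reversed. The mean mitochondrial share moved by less than its SD in all alternatives run. Leaving out a single library cannot move a mean by its SD, and counting all features added only 0.00131% of counts. Those alternatives could therefore not have shown a larger move. Counts on tRNA genes limit those values, since 7 of 22 did not pass the filter.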
